A study of Mus musculus with 9 samples.

Results

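Prl2c2 and Prl2c3 encode proliferin, a secreted hormone of the prolactin family, and were examined in C2C12, a line of mouse myoblasts, the muscle precursor cells that fuse into myotubes when serum is lowered. They are 2 of the 47728 genes in the deposited count tables, found by matching the tables' Ensembl identifiers to the symbols. The pair was selected on measured values, the large fall of its counts from day 0 to days 3 and 5 of differentiation, so that fall is described below without a test. PolyA RNA had been sequenced from 3 genotypes, labelled control, Cry1 knockdown and Cry2 knockdown, on each of these 3 days, and each genotype and day is represented by a single library, 9 in all. Cry1 and Cry2 are the cryptochromes, repressors of the circadian clock. All 9 cultures came from the same line, kept in 10% fetal bovine serum until day 0 and then in medium with 1% insulin, transferrin and selenium plus 5% horse serum. The labels do not say by which method Cry1 or Cry2 was knocked down, and with 1 culture per genotype and day a difference between cultures cannot be told apart from the knockdown.

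Proliferin is made in large amounts by trophoblast giant cells of the mouse placenta, where it is known as an angiogenic hormone. It is also known as a mitogen-regulated protein of cultured fibroblasts, induced by serum and growth factors, and forced expression of it is known to hold back myoblast differentiation. The protein carries mannose 6-phosphate and binds the mannose 6-phosphate and insulin-like growth factor 2 receptor, Igf2r. Its promoter is a textbook case of a composite element on which AP-1 and the glucocorticoid receptor act together.

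In the mouse genome build mm10 both genes lie on chromosome 13 on the minus strand, Prl2c3 (ENSMUSG00000056457) at chr13:12790816-12800079 and Prl2c2 (ENSMUSG00000079092) at chr13:12996125-13005383, with a gap of 196.0 kb. The paralog Prl2c5 (ENSMUSG00000055360) follows after another 177.3 kb on the plus strand, at chr13:13182715-13191923. No other protein-coding gene is annotated between Prl2c3 and Prl2c5, and 9 of the 11 other genes annotated there are pseudogenes. The more distant paralog Prl2c1 lies 14657.4 kb further along the chromosome. Each of these genes has 5 exons in its reference transcript.

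The coding sequences of Prl2c2 and Prl2c3 were identical at 672 of 675 bases (99.6%), and the whole reference transcripts, of 842 and 857 bases, at 97.8% of aligned columns. The 3 substitutions, written from Prl2c2 to Prl2c3 and counted from the first base of the start codon, were T14C in exon 1, C200A in exon 2 and T319G in exon 4. Each changes the encoded amino acid. The longest stretch without a difference ran for 356 coding bases. Prl2c5 was 96.1% identical to Prl2c2 and 96% to Prl2c3 over the coding sequence. The windows around the 3 substitutions are printed because they hold every coding base by which a read can be assigned to one member rather than the other. They are in mm10, read 5′ to 3′ on the coding strand, with capitals where the genes shown differ from each other.
Prl2c2, T14C window, chr13:13005296-13005326 (minus strand): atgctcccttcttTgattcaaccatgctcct
Prl2c3, T14C window, chr13:12799982-12800012 (minus strand): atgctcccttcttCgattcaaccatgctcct
Prl2c5, T14C window, chr13:13182782-13182812 (plus strand): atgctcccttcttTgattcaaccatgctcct
Prl2c2, C200A window, chr13:13002134-13002171 (minus strand): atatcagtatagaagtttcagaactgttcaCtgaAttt
Prl2c3, C200A window, chr13:12796831-12796868 (minus strand): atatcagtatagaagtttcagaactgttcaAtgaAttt
Prl2c5, C200A window, chr13:13185928-13185965 (plus strand): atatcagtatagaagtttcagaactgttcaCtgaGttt
Prl2c2, T319G window, chr13:12997434-12997467 (minus strand): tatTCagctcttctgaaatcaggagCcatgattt
Prl2c3, T319G window, chr13:12792141-12792174 (minus strand): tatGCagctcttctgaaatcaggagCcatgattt
Prl2c5, T319G window, chr13:13190586-13190619 (plus strand): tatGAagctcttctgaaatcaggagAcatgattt
In the reference transcripts only words around these sites and at the transcript ends belong to Prl2c2 or Prl2c3 alone. Of the 50-base words in all annotated transcripts of Prl2c2, 83.3% also stood in transcripts of another gene, against 60% for Prl2c3 and 35.1% for Prl2c5. Prl2c3 alone accounted for 71.5% of the words of Prl2c2. With words of 100 bases the shared percentages were 56.9 for Prl2c2, 44.7 for Prl2c3 and 8.68 for Prl2c5. In the reference transcripts 83 words of 50 bases were unique to Prl2c2 and 173 to Prl2c3. The counts below are therefore uncertain as to which paralog a read came from, since how the authors' counting treated reads that fit several genes is not given in the sources used here.

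**Figure D1:**
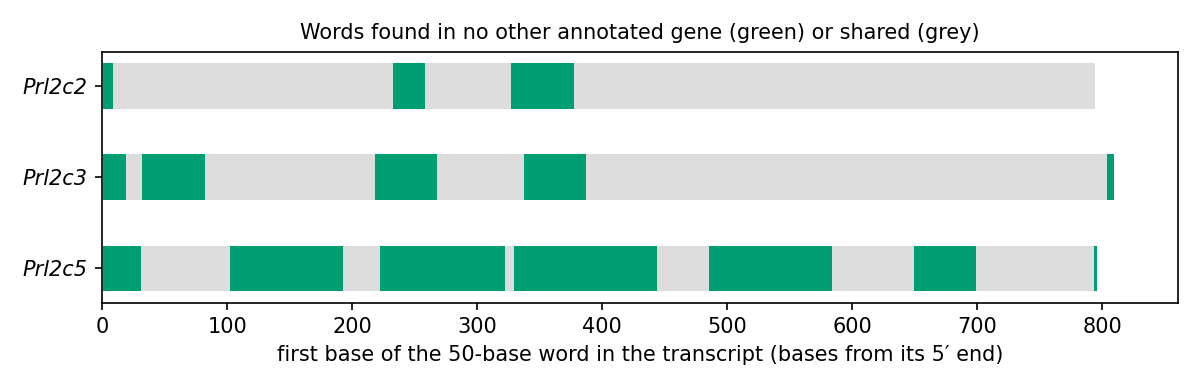
Position of the 50-base words along the reference transcript of each gene (horizontal axis, first base of the word from the 5′ end). Green marks words found in no other annotated gene and grey marks shared words: Prl2c2 has 83 unique words, Prl2c3 has 173 and Prl2c5 has 488.

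In growing cells at day 0 Prl2c3 was the main proliferin transcript by count in every genotype, and counts of both members collapsed by day 3. Levels are given in CPM, counts scaled to library size with TMM factors, and intervals are exact 95% Poisson intervals that cover counting error only. Prl2c3 in control cells had 513 counts (75.2 CPM) at day 0, 17 (2.86 CPM) at day 3 and 17 (3.15 CPM) at day 5. The Cry1 knockdown had 291 counts (43.1 CPM), then 5 (0.831 CPM), then 1 (0.177 CPM). The Cry2 knockdown had 540 counts (87.2 CPM), then 13 (2.75 CPM), then 4 (0.756 CPM). The 3 libraries of day 0 were all far above the later libraries, with no overlap, which is the fall that the gene was chosen for.

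From day 0 to day 3 the control level of Prl2c3 fell 26.3-fold (interval 16.3 to 45.6), and to day 5 it fell 23.9-fold (14.8 to 41.3). The fall in the Cry1 knockdown was 51.9-fold (22.0 to 161) by day 3. By day 5 it was 244-fold, on a single remaining count, with an interval of 43.5 to 9681. In the Cry2 knockdown it was 31.7-fold (18.4 to 59.9) by day 3 and 115-fold (44.8 to 425) by day 5. The control thus kept 3.80% of its day 0 level at day 3 and 4.18% at day 5, the Cry1 knockdown 1.93% and 0.409%, and the Cry2 knockdown 3.16% and 0.867%. In bulk RNA, fewer cells that express a gene and less RNA per cell cannot be told apart.

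Ordered by level, Prl2c3 was highest in the Cry2 knockdown at day 0, then in the control and the Cry1 knockdown at day 0. The intervals of the first pair overlapped, at 80.0 to 94.9 and 68.9 to 82.0 CPM, and that of the Cry1 knockdown, 38.3 to 48.4 CPM, lay below both. Control day 5, control day 3 and Cry2 knockdown day 3 came next, and their intervals overlapped almost wholly. Cry1 knockdown day 3, Cry2 knockdown day 5 and Cry1 knockdown day 5 were lowest, with upper limits of 1.94, 1.94 and 0.984 CPM, and likewise overlapped one another. The intervals of Cry1 knockdown day 3 and Cry2 knockdown day 5 also reached into those of control day 5, control day 3 and Cry2 knockdown day 3, which began at 1.83, 1.66 and 1.47 CPM.

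At day 0 Prl2c2 had 83 counts (12.2 CPM) in control cells, 20 (2.96 CPM) with Cry1 knocked down and 63 (10.2 CPM) with Cry2 knocked down. At days 3 and 5 it had 0 counts in all 6 libraries, which allows up to 3 counts, or between 0.499 and 0.635 CPM by library. Against that floor of 3 counts, and without counting error of the day 0 value, the control level at day 0 was at least 24.1-fold higher than at day 3 and at least 21.9-fold higher than at day 5. The matching bounds were at least 5.94-fold and 5.60-fold in the Cry1 knockdown, and at least 16.0-fold and 17.9-fold in the Cry2 knockdown. Because day 0 counts of Prl2c2 were lower, these bounds do not show whether it fell by more or less than Prl2c3.

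**Figure D2:**
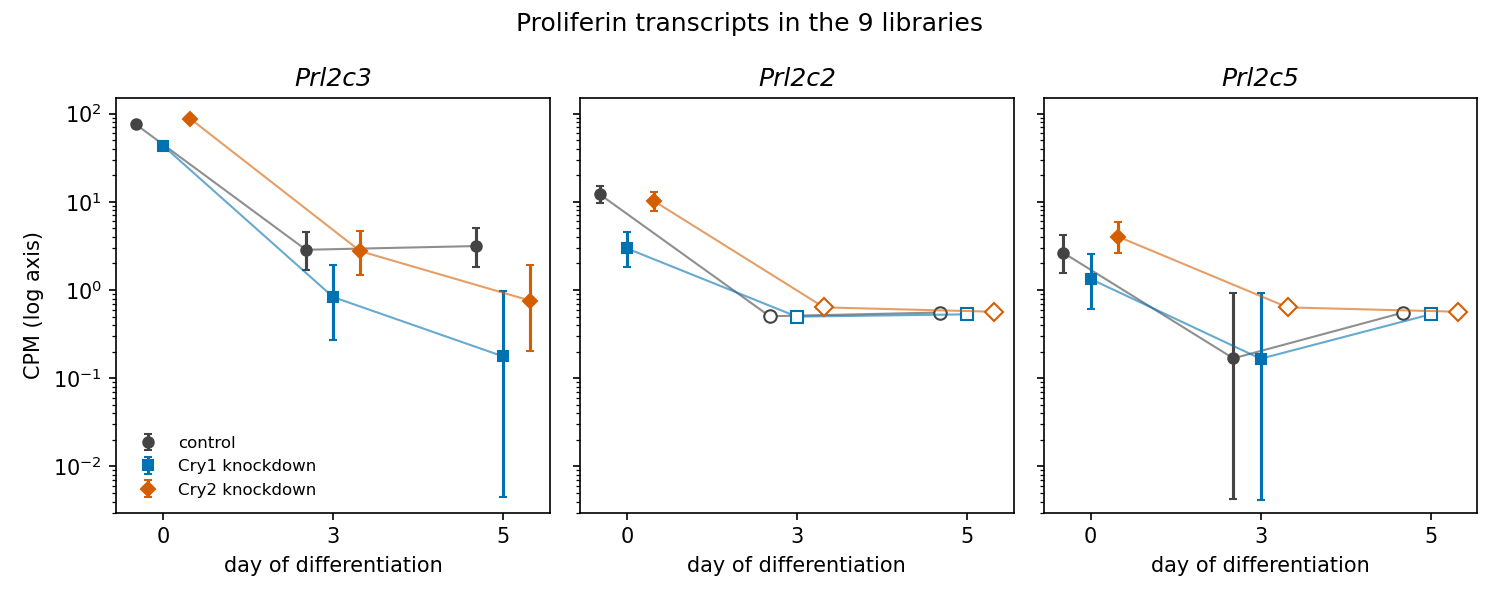
CPM on a log axis against day for Prl2c3, Prl2c2 and Prl2c5, 1 library per point, with exact 95% Poisson intervals. Open symbols are libraries with 0 counts, drawn at the floor of 3 counts without an interval, and may stand above a filled point that holds 1 count. The exact upper limit of such a library lies somewhat above its symbol. Prl2c3 at day 0 lies between 43.1 and 87.2 CPM and at later days at or below 3.15 CPM.

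The other proliferin genes were minor. Prl2c5 had 18, 9 and 25 counts at day 0 in the control, the Cry1 knockdown and the Cry2 knockdown, or 2.64, 1.33 and 4.04 CPM. At day 3 it had 1, 1 and 0 counts, and at day 5 none. Prl2c1 had 1 count, in the control at day 0, and did not enter the tests. Prl2c4 was not matched in the tables by that symbol. Of 21 other prolactin family hormones, 20 were at 0 in every library and Prl7a1 had 1 count, in the Cry1 knockdown at day 0. All 6 trophoblast giant cell markers examined, Hand1, Prl3d1, Prl3b1, Prl7d1, Ctsq and Gcm1, were at 0 in all 9 libraries.

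Prl2c2 made up 13.9% of the summed counts of the pair in the control at day 0 (exact binomial 95% interval 11.2% to 17.0%), 6.43% in the Cry1 knockdown (3.97% to 9.76%) and 10.4% in the Cry2 knockdown (8.12% to 13.2%). The intervals of the control and the Cry1 knockdown did not overlap, while that of the Cry2 knockdown overlapped both. At later days the share was 0 of 1 to 17 counts, with upper limits of 19.5% to 97.5%, so a change of the share in differentiation was not detectable at this depth. At day 0 Prl2c3 had 6.18 times the raw counts of Prl2c2 in the control, against 14.6 times with Cry1 knocked down and 8.57 times with Cry2 knocked down. Per unique 50-base word of all transcripts these ratios became 2.16, 5.09 and 3.00, and per unique word of the reference transcripts 2.97, 6.98 and 4.11. Prl2c3 was the higher of the pair on each of these scales, but the size of its lead moved with the assumption about which reads were counted.

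Sequence upstream of the transcription start, from RefSeq's table on GRCm38.p6, was matched for Prl2c3, 1 of the 2 members, and for Prl2c5. The 250 bases before each start are shown because members of the family fell together and because the promoter is known as an AP-1 target. Capitals mark matches to TGANTCA, a relaxed AP-1 site, and to TATAA.
Prl2c3 upstream, chr13:12800080-12800329 (minus strand): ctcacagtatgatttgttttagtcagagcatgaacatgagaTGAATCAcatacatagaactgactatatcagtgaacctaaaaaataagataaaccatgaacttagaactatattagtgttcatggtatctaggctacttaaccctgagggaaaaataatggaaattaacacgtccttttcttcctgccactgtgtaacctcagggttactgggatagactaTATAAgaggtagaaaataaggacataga
Prl2c5 upstream, chr13:13182466-13182715 (plus strand): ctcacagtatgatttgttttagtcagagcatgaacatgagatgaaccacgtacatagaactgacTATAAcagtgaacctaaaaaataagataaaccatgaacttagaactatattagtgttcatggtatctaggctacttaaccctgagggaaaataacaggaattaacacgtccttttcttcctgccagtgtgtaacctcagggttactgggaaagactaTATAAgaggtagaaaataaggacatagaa
Both promoters aligned with 241 of 251 columns identical (96%), 8 mismatches and 2 gaps. Prl2c3 held 1 match to TGANTCA, with the letters TGAATCA, beginning 209 bases before the start. None was found in Prl2c5. Over 32817 mouse promoters of the same length, 6.75% held TGANTCA on either strand. TATAA stood 28 bases before the start of Prl2c3, and 29 and 186 bases before that of Prl2c5, against 22.8% of all promoters with a match. The strict AP-1 site TGACTCA (4.46% of promoters), the glucocorticoid receptor hexamer AGAACA (16.1%), the E-box CANNTG (66.2%) and the clock E-box CACGTG (6.02%) had no match in either window on either strand. TGACTCA matches are also matches of TGANTCA, and CACGTG matches of CANNTG. Only exact matches to these motifs were sought, so a site with other letters would not be found in either promoter. A match describes letters only, and binding was not measured.

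The design asks whether proliferin differed between genotypes, a comparison that the choice of the genes did not use. Genotypes were compared by an additive edgeR quasi-likelihood fit of genotype and day over the 9 libraries. Each p-value, adjusted by the Benjamini-Hochberg method over 13094 genes, therefore sets a difference against the disagreement between days. Prl2c2, with counts at day 0 only, shows no such disagreement. Cry1 fell in its knockdown, with a log2 fold change of -1.22 ± 0.22 (SE) and adjusted p = 0.0265, and Cry2 fell in its own by 1.74 ± 0.17, with adjusted p = 0.0138. Cry1 stood at 15.8 to 20.5 CPM in the control series and 6.65 to 8.30 CPM in its own knockdown, and Cry2 at 19.2 to 48.9 and 7.27 to 16.6 CPM. Leaving out 1 library kept the Cry1 call in 3 of 9 fits (highest adjusted p 0.135, without the Cry1 knockdown at day 3), being lost without any library of the control or the Cry1 knockdown. The Cry2 call was kept in 6 of 9 and lost without the control at day 5 or the Cry2 knockdown at day 3 or day 5 (highest adjusted p 0.237), and with only the 6 libraries compared (adjusted p = 0.0524). Library totals ran from 4731020 to 6412279 counts.

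Both proliferin members were lower in the Cry1 knockdown than in the control, yet neither passed the test. At day 0 the Prl2c3 level in the Cry1 knockdown was 0.573 of the control's (interval 0.495 to 0.663). It was 0.291 of the control's at day 3 (0.0840 to 0.822) and 0.0561 at day 5 (0.00134 to 0.358, on 1 count). All 3 ratios were below 1 with intervals that excluded 1, which are counting intervals without culture-to-culture spread. Over the days the edgeR log2 fold change was -1.12 ± 0.32 (SE), with unadjusted p = 0.00665 and adjusted p = 0.103. For Prl2c2 the day 0 ratio was 0.244 (0.142 to 0.401) and the log2 fold change -2.00 ± 0.49, with edgeR adjusted p = 0.123. The value for Prl2c2 rests on the day 0 libraries alone, since all later counts were 0. Its SE and p therefore rest on the spread that the fit took from other genes, not on disagreement between days. Prl2c5 had a ratio of 0.505 (0.200 to 1.18) at day 0 and a log2 fold change of -0.85 ± 0.69, with edgeR adjusted p = 0.559.

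Of the 2 members, 0 passed in Cry1 knockdown against control, where 349 genes, or 2.67% of those tested, did, and 2492 had an unadjusted p under 0.05. DESeq2's Wald test also called neither member, with an adjusted p of 0.159 for Prl2c3. The call turned on the filter for low counts: with no filter the edgeR adjusted p was 0.00332 for Prl2c3 and 0.0132 for Prl2c2, with log2 fold changes of -1.13 and -2.01. That setting tested the 23515 genes with a count. It raised the number of calls over all genes, as the closing section gives, and not for the members alone. Over all alternatives tried the adjusted p for Prl2c3 ran from 0.00332 to 1.00. Leaving out the Cry1 knockdown at day 0 moved the log2 fold change of Prl2c3 to -2.21, and leaving out the control at day 0 moved it to -2.11. At day 0 both members were at least 1.5-fold lower in the Cry1 knockdown, as were 6.74% of all genes tested.

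In the same comparison some muscle genes were higher. Of 12 myogenic factors and early muscle genes, 2 rose against the control and 0 fell, with a median log2 fold change of 0.65 against 0.01 over all genes. Mef2c, a myogenic transcription factor, rose by 1.23 ± 0.19 on the log2 scale (edgeR adjusted p = 0.0185), and Ckm, muscle creatine kinase, by 0.84 ± 0.18 (edgeR adjusted p = 0.0452). The call of Ckm was lost without any 1 of 7 libraries, including the control at day 0 (adjusted p = 0.110), and that of Mef2c without 4. Summed over the 12 genes, day 0 levels were 488 CPM (control), 1183 CPM (Cry1 knockdown) and 380 CPM (Cry2 knockdown). At day 3 the sums were 12466 CPM (control) and 17934 CPM (Cry1 knockdown), and at day 5 they were close, at 17825 and 18430 CPM. The 5 myotube markers are all among these 12 genes, and of them 1 rose, again Ckm, and 0 fell. They summed to 284 CPM in control cells and 814 CPM in the Cry1 knockdown at day 0, and to 15039 and 15137 CPM at day 5. Of the 4 myoblast markers 1 rose and 0 fell. Pax7 rose by 0.92 ± 0.20 (edgeR adjusted p = 0.0480), while Myod1, Myf5 and Des did not pass. The Pax7 call lies close to the threshold, and whether it holds with a library left out was not examined. Of the 3 fibroblast markers 1 rose and 1 fell. Col1a1, a fibrillar collagen gene, rose by 0.75 ± 0.14 (edgeR adjusted p = 0.0316) and Dcn, the decorin gene, changed by -1.31 ± 0.13 (edgeR adjusted p = 0.00464). Leaving out 1 library kept the call of Dcn in 9 of 9 fits and that of Col1a1 in 2 of 9, those without the Cry2 knockdown at day 0 or at day 5 (highest adjusted p 0.127, without the Cry1 knockdown at day 3). Their summed day 0 levels, 989, 1662 and 529 CPM in the control, the Cry1 knockdown and the Cry2 knockdown, were mostly Col1a1, at 947, 1634 and 486 CPM, whereas Dcn stood at 20.1, 9.34 and 28.3 CPM. The part of these muscle and fibroblast genes in the lower proliferin level was not tested. Of 10 proliferation genes, 0 passed in this edgeR comparison, with a median of -0.02 and summed day 0 levels of 2191 CPM (control) and 2234 CPM (Cry1 knockdown).

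Proliferin in the Cry2 knockdown was close to the control at day 0 and gave no call. The Prl2c3 ratio to the control was 1.16 (1.03 to 1.31) at day 0, 0.963 (0.430 to 2.11) at day 3 and 0.240 (0.0588 to 0.736) at day 5. These ratios fell on both sides of 1. The fitted log2 fold change was -0.05 ± 0.30 (edgeR adjusted p = 0.967), and its sign turned to 0.18 without the control at day 5 and to 0.09 without the Cry2 knockdown at day 5. For Prl2c2 the day 0 ratio was 0.836 (0.593 to 1.17) and the log2 fold change -0.25 ± 0.43 (edgeR adjusted p = 0.869). Prl2c5 gave 0.46 ± 0.61 (edgeR adjusted p = 0.822). In this edgeR comparison 0 of 2 members passed, at an unadjusted p under 0.05 also 0, against 11 genes called, or 0.084% of those tested, and 1604 with an unadjusted p under 0.05. DESeq2 called 85 genes and neither member. At day 0 neither member was 1.5-fold or more lower than in the control, as 5.56% of genes were.

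Between the knockdowns Prl2c3 was 2.02-fold (1.75 to 2.34) higher in the Cry2 than in the Cry1 knockdown at day 0, 3.31-fold (1.11 to 11.9) at day 3 and 4.28-fold (0.424 to 211) at day 5. The log2 fold change was 1.07 ± 0.31 (edgeR adjusted p = 0.0724). It passed with only the 6 libraries compared, at adjusted p = 0.0216, and without the control at day 5, at adjusted p = 0.0140. The latter was the only 1 to pass of the 9 edgeR fits that left out 1 library. Over those fits the log2 fold change ran from 0.65 to 2.16 and the adjusted p up to 0.623. For Prl2c2 the day 0 ratio was 3.43 (2.05 to 5.99) and the log2 fold change 1.75 ± 0.49 (edgeR adjusted p = 0.107). Prl2c5 gave 1.31 ± 0.67 (edgeR adjusted p = 0.269). Neither member passed, while 1038 genes, or 7.93%, did. With the counts of the paralogs summed to 1 row, so that reads need not be split between them, the adjusted p was 0.0556 here, 0.0766 in Cry1 knockdown against control and 0.938 in Cry2 knockdown against control.

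**Figure D3:**
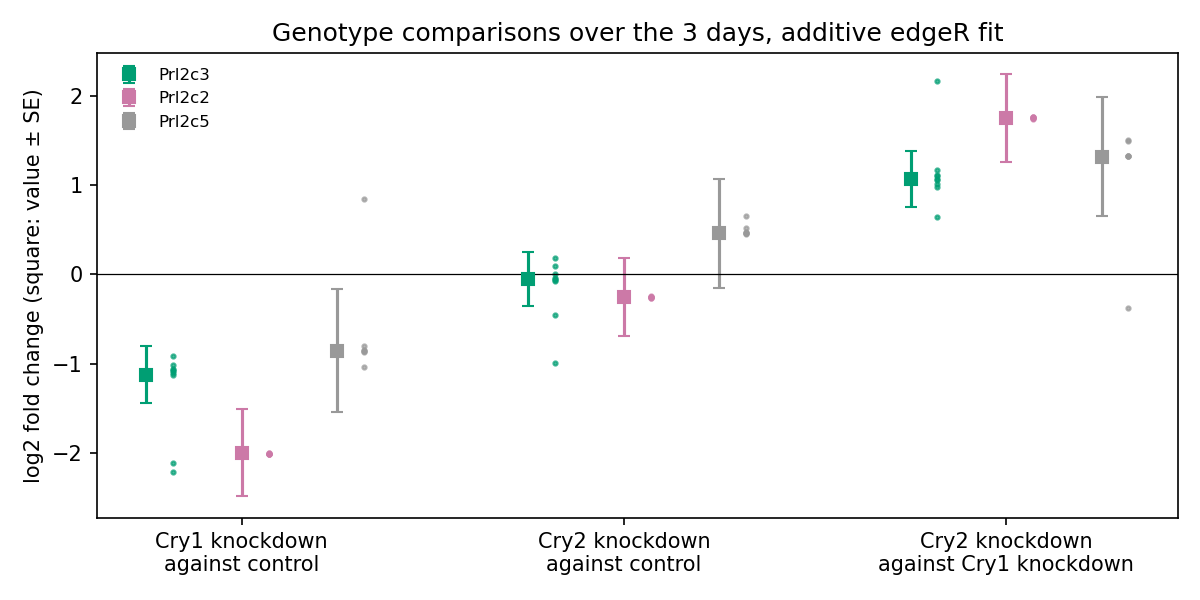
Log2 fold change of Prl2c3, Prl2c2 and Prl2c5 in the 3 genotype comparisons (squares, ± SE of the additive edgeR fit), with the values after leaving out 1 library at a time as dots to the right. For Prl2c3 in Cry1 knockdown against control the dots run from -2.21 to -0.92, and in Cry2 knockdown against control they lie on both sides of 0.

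Whether the fall from day 0 was steeper in a knockdown was asked with a term for genotype by stage, days 3 and 5 against day 0. For Prl2c3 the extra log2 change was -1.71 ± 0.69 in the Cry1 knockdown (edgeR adjusted p = 0.976) and -1.02 ± 0.56 in the Cry2 knockdown (edgeR adjusted p = 0.835). Neither passed after adjustment over 13608 genes, in a fit that leaves 2 residual degrees of freedom. The unadjusted p for Prl2c3 in the Cry1 knockdown was 0.0426. For Prl2c2 no such term could be estimated, since all later libraries were at 0. In the Cry1 knockdown edgeR called 0 of 13608 genes, a share of 0%, with 670 at an unadjusted p under 0.05, Prl2c3 among them, and DESeq2 called 15. In the Cry2 knockdown it called 5, or 0.0367%. Without the control at day 3 the Prl2c3 term in the Cry1 knockdown became -3.03, in a fit where day 5 was the only later control library. Over the 6 fits that left out 1 library this term ran from -3.03 to -0.98.

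Lists chosen for the mannose 6-phosphate tag, AP-1, serum response and growth factors were examined in the day comparisons of the same additive fit. In these comparisons 51.1% of all genes changed by day 3 and 56.2% by day 5. A link of the listed genes to proliferin was not tested. Of 5 mannose 6-phosphate receptors and tagging enzymes, 2 rose and 1 fell by day 3, with a median log2 fold change of 0.14 against 0.01 over all genes. Igf2r, the receptor, stood at 94.7, 291 and 380 CPM on days 0, 3 and 5 of the control series. The Cry1 knockdown series gave 113, 199 and 360 CPM, and that of Cry2 gave 102, 142 and 283 CPM. It was higher at each later day in every genotype, by a log2 fold change of 0.98 ± 0.18 at day 3 (edgeR adjusted p = 0.00157). Gnptg, a subunit of the enzyme that starts the tag, rose by 0.84 ± 0.14 and Gnptab, its catalytic part, fell by 0.77 ± 0.11. M6pr, the other receptor, changed by 0.14 ± 0.10 and did not pass. In the genotype comparisons none of these 5 genes passed in edgeR.

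Among 7 tested AP-1 and glucocorticoid receptor genes 2 rose and 1 fell by day 3, with a median of 0.22. Fosl1, an AP-1 subunit, stood at 88.7, 10.8 and 5.37 CPM on days 0, 3 and 5 of the control series. The Cry1 knockdown series gave 67.0, 9.31 and 2.12 CPM, and that of Cry2 gave 78.3, 7.41 and 1.89 CPM. Its day 0 libraries lay above all later ones, and the share of all genes that separate in this way is not given here. Fosl1 fell by 3.09 ± 0.18 on the log2 scale at day 3 (edgeR adjusted p = 2.8e-06). Junb rose by 0.69 ± 0.12 and Fosl2 by 0.59 ± 0.08, while Jund, at 0.22 ± 0.09, did not pass. The family therefore did not move as one. In Cry1 knockdown against control Fosl1 had a log2 fold change of -0.48 ± 0.20 (edgeR adjusted p = 0.232).

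Serum and growth factor response genes fell more often than they rose, 7 against 1 of 14 by day 3, with a median of -0.43. Spry4, an inhibitor of growth factor signalling, changed by -1.71 ± 0.27, the ERK phosphatase gene Dusp6 by -1.24 ± 0.23, Myc by -0.85 ± 0.14 and the phosphatase gene Dusp1 by -0.72 ± 0.15. Among 12 EGF and FGF family signals and receptors 4 rose and 6 fell, with a median of -0.69. Fgf21 rose by 4.14 ± 0.98, a call lost without the control at day 0 (adjusted p = 0.0576), and the receptor gene Erbb3 by 2.36 ± 0.21, while the ligand genes Btc and Fgf7 changed by -2.68 ± 0.49 and -2.59 ± 0.30. Btc was also lower in the Cry1 knockdown than in the control, by -2.92 ± 0.57 (edgeR adjusted p = 0.0378). That call was lost in DESeq2 (adjusted p = 0.0634) and without any 1 of 6 libraries, among them the Cry1 knockdown at day 0 (adjusted p = 0.185). Leaving out 1 library gave a value for Btc in 7 fits, and 1 of them kept the call.

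The timing of proliferin's fall coincided with withdrawal from the cell cycle and muscle gene expression. All 10 proliferation genes fell by day 3, with a median of -2.24, among them Mki67 at -2.89 ± 0.14, Ccnb1 at -2.59 ± 0.13, Top2a at -2.51 ± 0.08 and Ccna2 at -2.44 ± 0.11. Of 12 myogenic genes 11 rose, with a median of 4.25, led by embryonic myosin Myh3 at 5.39 ± 0.36, skeletal actin Acta1 at 5.38 ± 0.46, Ckm at 5.29 ± 0.21 and slow troponin Tnni1 at 5.23 ± 0.39. On the same scale the fitted day 3 value of Prl2c3 was -5.02 ± 0.31, given as a description because it was what the gene was chosen for. The protein-coding neighbours on either side of the cluster were also lower at day 3, as were 3361 of the 13094 genes tested. The log2 fold change was -0.89 ± 0.23 (edgeR adjusted p = 0.0106) for Ero1lb, 179.4 kb away. For Gpr137b, 165.7 kb away, it was -1.33 ± 0.24 (edgeR adjusted p = 0.00147). Against control the Cry1 knockdown gave Ero1lb -0.78 ± 0.24 (edgeR adjusted p = 0.126) and Gpr137b -0.75 ± 0.24 (edgeR adjusted p = 0.134), neither of which passed. The Cry2 knockdown gave Ero1lb -0.21 ± 0.23 (edgeR adjusted p = 0.777) and Gpr137b -0.62 ± 0.24 (edgeR adjusted p = 0.350), which did not pass either.

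The genes whose profile over the 9 libraries was most like each member were found by the root mean square difference of centred log2(CPM + 0.5), among genes with a mean of at least 5 CPM. For Prl2c3 they were Il1rn (0.680), Slc16a11 (0.854), Itgb7 (0.873), Fosl1 (0.887), Igsf5 (0.904) and Akap12 (0.912), where the median over all 10115 genes was 2.55. For Prl2c2 they were Itgb7 (0.298), Il1rn (0.434), Slc16a11 (0.450), Cxcl5 (0.473), Mgp (0.530) and Eps8 (0.638). Il1rn, Slc16a11 and Itgb7 stood on both lists, and the members themselves were 0.963 apart. Il1rn, the interleukin 1 receptor antagonist, had 31.1, 8.45 and 18.1 CPM at day 0 in the control, the Cry1 knockdown and the Cry2 knockdown, and at most 0.741 CPM later. Itgb7, an integrin chain, had 22.7, 5.78 and 25.0 CPM at day 0 and at most 0.555 CPM later. Like both members, these genes had their lowest day 0 level in the Cry1 knockdown, which the likeness measure itself rewards. With a pseudocount of 5 in place of 0.5, 2 of the 6 genes of Prl2c3 and 0 of the 6 of Prl2c2 were kept.

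**Figure D4:**
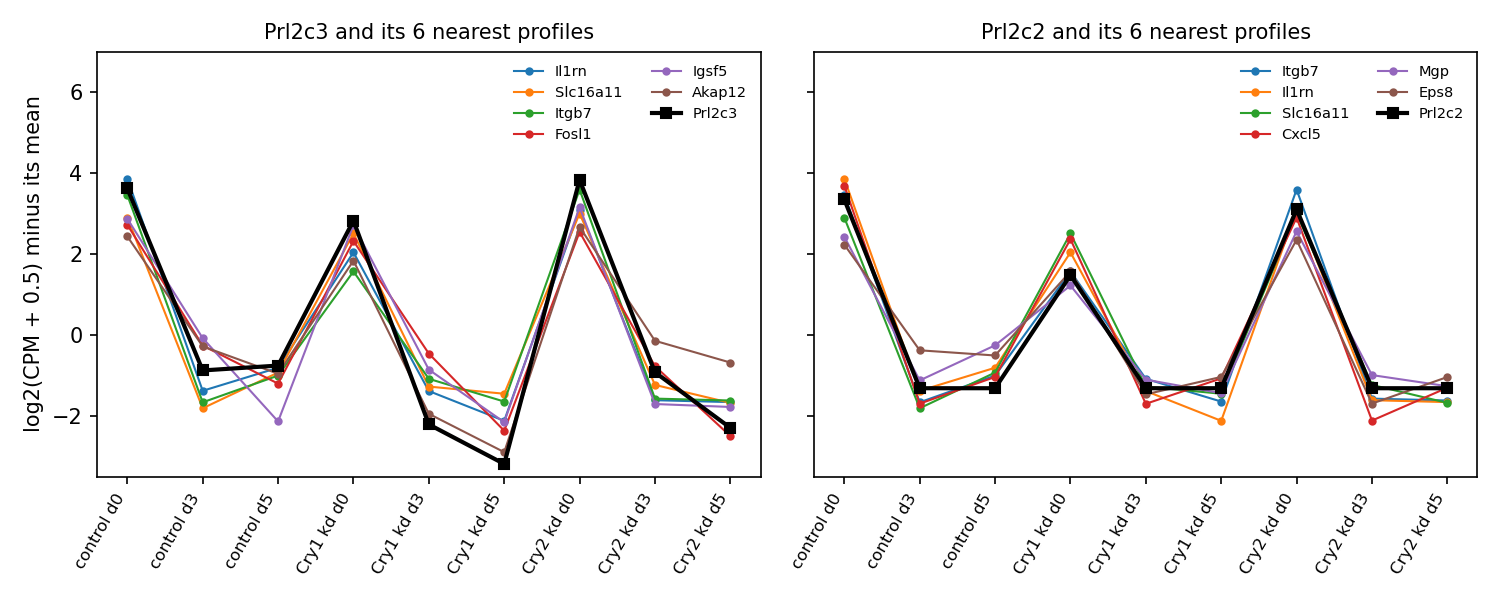
Log2(CPM + 0.5) minus its mean over the 9 libraries for each member (black squares) and its 6 most alike genes (coloured), by genotype and day (d) with kd for knockdown. Every profile peaks in the day 0 libraries, and the flat later part of Prl2c2 is set by the pseudocount because its counts there are 0.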

How the data were processed

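The labels describe polyA RNA of C2C12 cells, made into TruSeq RNA v2 libraries and sequenced on a HiSeq2500. Per the submitters' processing notes the tools were CASAVA 1.8, HISAT2 2.0.2 and featureCounts 1.4.6 of Subread on mm10. The deposited values are raw counts per gene. Strand setting, treatment of reads that fit several genes and annotation release are not given in the sources used here. The members and gene lists were chosen with earlier results of these data known.

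Counts were scaled by TMM, filtered by filterByExpr and tested by the quasi-likelihood F test of edgeR 4.0.16 under R 4.3.3 at a Benjamini-Hochberg adjusted p of 0.05. The additive fit of genotype and day had 4 residual degrees of freedom over 13094 genes, and the fit of genotype by stage 2 over 13608. Both members passed the filter. Each SE was taken from the F statistic, as log2 fold change over √F. Ratios between libraries carry exact 95% intervals. DESeq2 1.42.0, RLE factors, no filter, a filter of 1 CPM in 3 libraries, paralogs summed, no day term, only the 6 libraries compared and each library left out were the alternatives, with those for the day comparisons and the 1.5-fold limit within day 0 chosen after seeing the data. On simulated counts for Cry1 knockdown against control, 62.7%, 86.6% and 100% of genes changed 1.5-, 2- and 4-fold were recovered, and 6.21% of calls were false. The changed genes all had a higher mean count than Prl2c2. Each was given the same fold on every day, with no disagreement between days in the genotype effect. Recovery was therefore not measured for the members themselves.

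Named genes were the members, their paralogs, Cry1, Cry2, up to 4 genes per list and the 6 genes most alike each member. Flanking genes Ero1lb and Gpr137b were chosen by position. Words of 50 bases were compared over GENCODE transcripts of mm10. Protein identity was not computed, since no protein table was used here. Python 3.11.15 did the remaining work.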

Additional observations from a re-analysis of the deposited data

How the results depend on the processing

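Every member result had 1 library per genotype and day behind it, and counts of 0 to 20 limit all later-day values and Prl2c2 in the Cry1 knockdown. No paired analysis was possible because the labels give no replicate numbers and each genotype and day has 1 library; the day term of the additive fit is what matches genotypes by day. Where values moved, the cause was not tested.

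With no filter on low counts, the 23515 genes with a count were tested. EdgeR then called 316 genes in Cry2 knockdown against control (11 with the filter), 919 in Cry1 knockdown against control (349), 48 in the differentiation response of the Cry2 knockdown (5) and 72 in that of the Cry1 knockdown (0). Both members then passed in Cry1 knockdown against control (Prl2c2 -2.01, Prl2c3 -1.13) and between the knockdowns (Prl2c2 1.73, Prl2c3 1.05). A filter of 1 CPM in 3 libraries left 6 calls in Cry2 knockdown against control. DESeq2 called 85 genes there, 660 between the knockdowns (1038 in edgeR), and 10 and 15 in the responses of the Cry2 and Cry1 knockdowns. Without a day term no comparison of genotypes called a gene (0), and Prl2c3 in Cry2 knockdown against control turned to 0.16. With only the 6 libraries compared, 5 and 203 genes were called in Cry2 and Cry1 knockdown against control, and Prl2c3 between the knockdowns passed at 1.10. Shared words of 100 bases fell to 56.9% for Prl2c2 and 44.7% for Prl2c3.

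Leaving out 1 library gave 0 to 17 calls in Cry2 knockdown against control, 27 to 366 in Cry1 knockdown against control, 258 to 1137 between the knockdowns, and 5 to 160 and 0 to 126 in the responses of the Cry2 and Cry1 knockdowns. Prl2c3 ran from -0.998 to 0.18 in Cry2 knockdown against control, with 0.09 and 0.18 the reversed values. It ran from -2.21 to -0.92 in Cry1 knockdown against control, from 0.65 to 2.16 between the knockdowns, and from -2.30 to -0.24 and -3.03 to -0.98 in the responses of the Cry2 and Cry1 knockdowns. Prl2c5 ran from -1.04 to 0.84 in Cry1 knockdown against control and from -0.38 to 1.5 between the knockdowns, its sign turning without the Cry1 knockdown at day 0. Prl2c2 could not be fitted without the day 0 library of either genotype compared.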
